A study of Mus musculus with 12 samples.

Results

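The genes described here encode the BAF subunits that are exchanged when embryonic stem cells and neural progenitors become neurons. They were chosen by name: Actl6a and Actl6b, Phf10, Dpf1, Dpf2 and Dpf3, Ss18 and Ss18l1, and Smarcc1 and Smarcc2. All 10 were found among the 19938 genes that had a probe set with 1 gene symbol, and each of the 10 was read by 1 probe set. RNA was measured on 12 Affymetrix mouse gene arrays, 1 array per sample, in embryonic stem cells (ESCs) of the R1 mouse line, grown on fibroblast feeders blocked with mitomycin. The cells had been infected with a scrambled control or carried a knockdown of Smarcd1, the gene of BAF60a, a BAF subunit outside these 10. RA KD1 (4 arrays) and RA scrambled (2 arrays) were the KD1 and control cells after 4 days in 1 µM retinoic acid (RA) without leukemia inhibitory factor. ESC KD2 (2 arrays), ESC KD1 (2 arrays) and ESC scrambled (2 arrays) were undifferentiated cells of both knockdown lines and of the control. The labels speak of clones and give 1 name to all control arrays. The arrays of a group are thus read as repeats of 1 line, and each knockdown comparison sets 1 line against 1 line. What else sets the lines apart and the knockdown cannot be told apart. Replicates are labelled biological without a statement of how cultures were separated, and p-values therefore reflect the spread among arrays, part of which may be technical.

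BAF (SWI/SNF) complexes use ATP to move nucleosomes, and several of their positions can be filled by alternative subunits. In ESCs and neural progenitors the actin-like position holds Actl6a (BAF53a), and the PHD-finger position holds Phf10 (BAF45a) or Dpf2 (BAF45d). In post-mitotic neurons these give way to Actl6b (BAF53b) and to Dpf1 (BAF45b) or Dpf3 (BAF45c), and Ss18 gives way to Ss18l1 (CREST). Smarcc1 (BAF155) is the scaffold subunit typical of ESCs, whereas Smarcc2 (BAF170) is gained during differentiation. In the known circuit the repressor REST holds down the genes of miR-9* and miR-124, and these microRNAs repress Actl6a as neurons form.

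The promoters of the members that passed the test as higher in RA scrambled than in ESC scrambled cells are shown because these are the genes called in that comparison. The microRNA is shown because it is the named repressor of Actl6a. Sequences are those of RefSeq on GRCm38.p6, and 9 of the 10 members had a promoter entry of 300 bases, from 250 before to 50 after the start of the gene. Capitals in the promoters mark matches on either strand to CCAAT (the NF-Y box), GGGCGG (the GC box), AGGTCA (the nuclear receptor half-site) or TTCAGCACC (part of the REST element), and capitals in the microRNA mark the seed, bases 2 to 8.
Smarcc2 promoter, chr10:128458986-128459285, plus strand: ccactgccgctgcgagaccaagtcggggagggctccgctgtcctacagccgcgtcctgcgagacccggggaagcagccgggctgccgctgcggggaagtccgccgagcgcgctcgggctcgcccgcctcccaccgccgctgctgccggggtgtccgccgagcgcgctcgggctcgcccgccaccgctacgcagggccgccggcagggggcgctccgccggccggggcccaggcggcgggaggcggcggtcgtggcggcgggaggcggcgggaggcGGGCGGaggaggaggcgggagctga
Dpf2 promoter, chr19:5912822-5913121, minus strand: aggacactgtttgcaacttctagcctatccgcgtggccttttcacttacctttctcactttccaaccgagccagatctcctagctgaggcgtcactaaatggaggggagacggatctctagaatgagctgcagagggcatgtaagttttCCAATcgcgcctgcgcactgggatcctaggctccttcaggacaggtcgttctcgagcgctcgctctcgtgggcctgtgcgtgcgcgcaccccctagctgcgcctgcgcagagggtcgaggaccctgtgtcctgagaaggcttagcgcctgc
Dpf3 promoter, chr12:83487687-83487986, minus strand: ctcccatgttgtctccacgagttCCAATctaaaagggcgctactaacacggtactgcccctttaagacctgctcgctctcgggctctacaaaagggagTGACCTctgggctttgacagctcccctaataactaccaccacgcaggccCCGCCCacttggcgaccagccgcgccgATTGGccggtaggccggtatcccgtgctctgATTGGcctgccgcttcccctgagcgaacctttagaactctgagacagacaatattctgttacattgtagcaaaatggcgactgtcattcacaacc
mmu-miR-9-3p (miR-9*): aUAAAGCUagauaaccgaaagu
The promoter of Smarcc2 held 1 GGGCGG match and that of Dpf2 held 1 CCAAT match. The promoter of Dpf3 held 3 CCAAT, 1 GGGCGG and 1 AGGTCA match, and no matches overlapped in these 3 windows. Among all 32851 promoters in the table, 37.4% held CCAAT, 35.7% held GGGCGG, 16.3% held AGGTCA and 0.371% held TTCAGCACC, which was in none of the 9 member promoters. These are matches of letters only.

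The knockdown was checked first. Smarcd1 measured 6.36, 6.61, 6.50 and 6.44 on the log2 scale in RA KD1, against 8.84 and 8.64 in RA scrambled. In undifferentiated cells it measured 8.56 and 7.16 in ESC KD2, 7.75 and 7.78 in ESC KD1, and 8.67 and 8.68 in ESC scrambled. The array labelled ESC KD2 replicate 1 was thus 0.11 below the control mean, which goes against its label, while ESC KD2 replicate 2 had the lowest undifferentiated level. The KD2 pair correlated at r = 0.918 across tested genes, against 0.984 to 0.994 for pairs within the other groups. The KD2 arrays enter the spread that all comparisons share, so where leaving them out changes the call of a member or of Smarcd1, both values are given. The change of Smarcd1 was −0.91 ± 0.33 in ESC KD1 against ESC scrambled (limma adjusted p 0.23, and 0.00196 without the KD2 arrays). Its difference between the lines in the response to retinoic acid was −1.35 ± 0.43 (limma adjusted p 0.0855, and 0.000358 without the KD2 arrays).

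Cell type markers were read as the mean log2 level of a whole list on each array (plot of marker lists). The list means lay apart between some groups and overlapped between others. Pluripotency genes (22 measured) averaged 6.34 to 6.97 in RA KD1 and 6.41 to 6.42 in RA scrambled, against 9.63 to 10.03 in ESC KD2, 9.67 to 9.76 in ESC KD1 and 9.20 to 9.60 in ESC scrambled. Neural progenitor genes (19 measured) averaged 5.58 to 5.86 in RA KD1 and 6.49 to 6.73 in RA scrambled. They averaged 5.63 to 5.69 in ESC KD2, 5.71 to 5.75 in ESC KD1 and 5.90 to 6.11 in ESC scrambled. The list mean of RA KD1 thus overlapped the undifferentiated knockdown lines, but it joins opposite moves. In RA KD1 against ESC KD1, 6 of the 16 tested rose and 4 fell, beside 29.4% and 21.4% of all tested genes. Their median was 0.31, against 0.06 for all tested genes. Sox2, also on the pluripotency list, changed most (−3.91 ± 0.39, limma adjusted p 8.69e-06). The RA KD1 arrays were not alike for Sox2, at 6.35 and 6.35 in replicates 1 and 2 and 7.84 and 7.70 in replicates 3 and 4. Across tested genes RA KD1 replicates 1 and 2 correlated at r = 0.992, and replicates 3 and 4 at 0.994. Between these pairs r was 0.985 to 0.987. What sets the pairs apart was not tested. Post-mitotic neuron genes (23 measured) averaged 4.62 to 4.84 in RA KD1 and 5.02 to 5.09 in RA scrambled, against 5.04 to 5.32 in ESC KD2, 5.17 to 5.25 in ESC KD1 and 5.13 to 5.37 in ESC scrambled. Only 14 of the 23 were bright enough to test, and Dcx, Rbfox3 and Snap25 were not among them. This list mean also joins opposite moves. Of the 14, 3 rose and 7 fell in RA KD1 against ESC KD1, beside 29.4% and 21.4% of all tested genes. In RA scrambled against ESC scrambled 2 rose and 6 fell, beside 22.4% and 16.7%. Extraembryonic endoderm genes (20 measured) averaged 9.31 to 9.69 in RA KD1 and 7.15 to 7.19 in RA scrambled, against 5.71 to 5.98 in ESC KD2, 6.78 to 6.86 in ESC KD1 and 6.04 in ESC scrambled. Feeder and fibroblast genes (16 measured) averaged 6.29 to 6.73 in RA KD1 and 7.30 to 7.59 in RA scrambled, against 5.83 to 6.21 in ESC KD2, 5.71 to 6.38 in ESC KD1 and 6.61 to 6.68 in ESC scrambled. Of the 14 tested feeder and fibroblast genes, 6 rose and 4 fell in RA KD1 against ESC KD1, beside 29.4% and 21.4% of all tested genes. In RA scrambled against ESC scrambled 7 of them rose and 2 fell, beside 22.4% and 16.7%. Each array reads a mixed culture, so fewer cells of a type and less RNA per cell cannot be told apart. The part of these cell types in the results that follow was not tested.

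**Figure D1:**
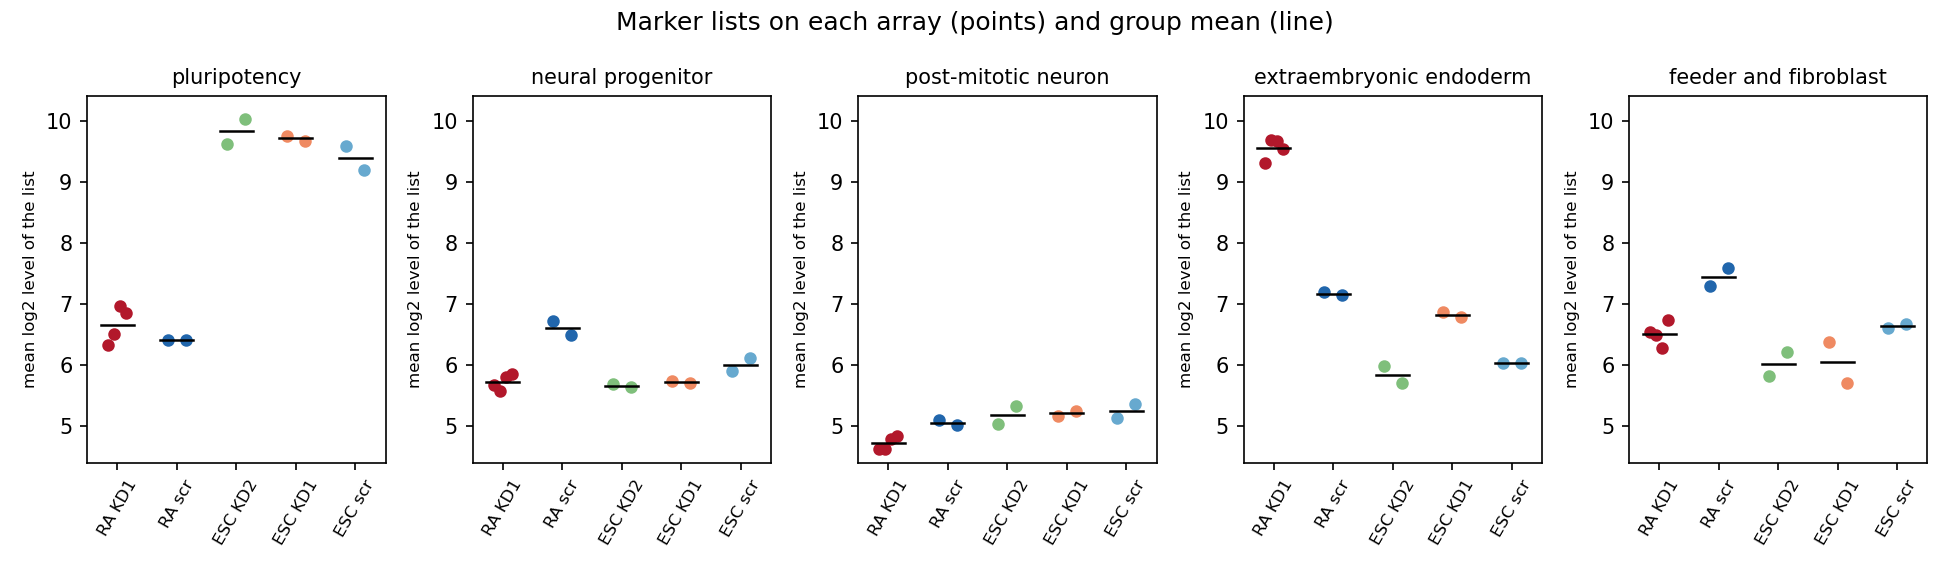
Mean log2 level of 5 marker lists (y axis) on each array (points) in the 5 groups (x axis), with the group mean as a line. RA KD1 arrays were highest for extraembryonic endoderm genes (9.31 to 9.69) and RA scrambled arrays for neural progenitor genes (6.49 to 6.73), and all RA arrays were low for pluripotency genes.

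After retinoic acid the scaffold Smarcc2 and the PHD-finger subunit Dpf2 were higher in both lines. Dpf3 passed as higher in control cells, and Actl6a passed as lower and Phf10 as higher in KD1 cells. Of these, Dpf3 alone passed the test of a difference between the lines in the response. In RA scrambled against ESC scrambled, Smarcc2, Dpf2 and Dpf3 rose and none fell, out of 9 members bright enough to test (limma, Benjamini-Hochberg adjusted p under 0.05 over 12988 genes). Among all tested genes 22.4% were called higher and 16.7% lower in that comparison, 39.1% in either direction, so the members' share was close to the background. The members' median log2 change was 0.43, against 0.06 for all tested genes. In RA KD1 against ESC KD1, Smarcc2, Dpf2 and Phf10 rose and Actl6a fell, where 29.4% of all tested genes were called higher and 21.4% lower, 50.8% in either direction. That share also lay near the background, and the members' median was −0.06, against 0.06 for all tested genes. In RA KD1 against RA scrambled, Dpf3 and Smarcc1 fell and none rose, where 11.2% of tested genes were called higher and 11.5% lower, 22.7% in either direction. The members' share was again near the background, and their median was −0.36, against −0.02 for all tested genes. The 3 comparisons share arrays, so their values are set side by side only.

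**Figure D2:**
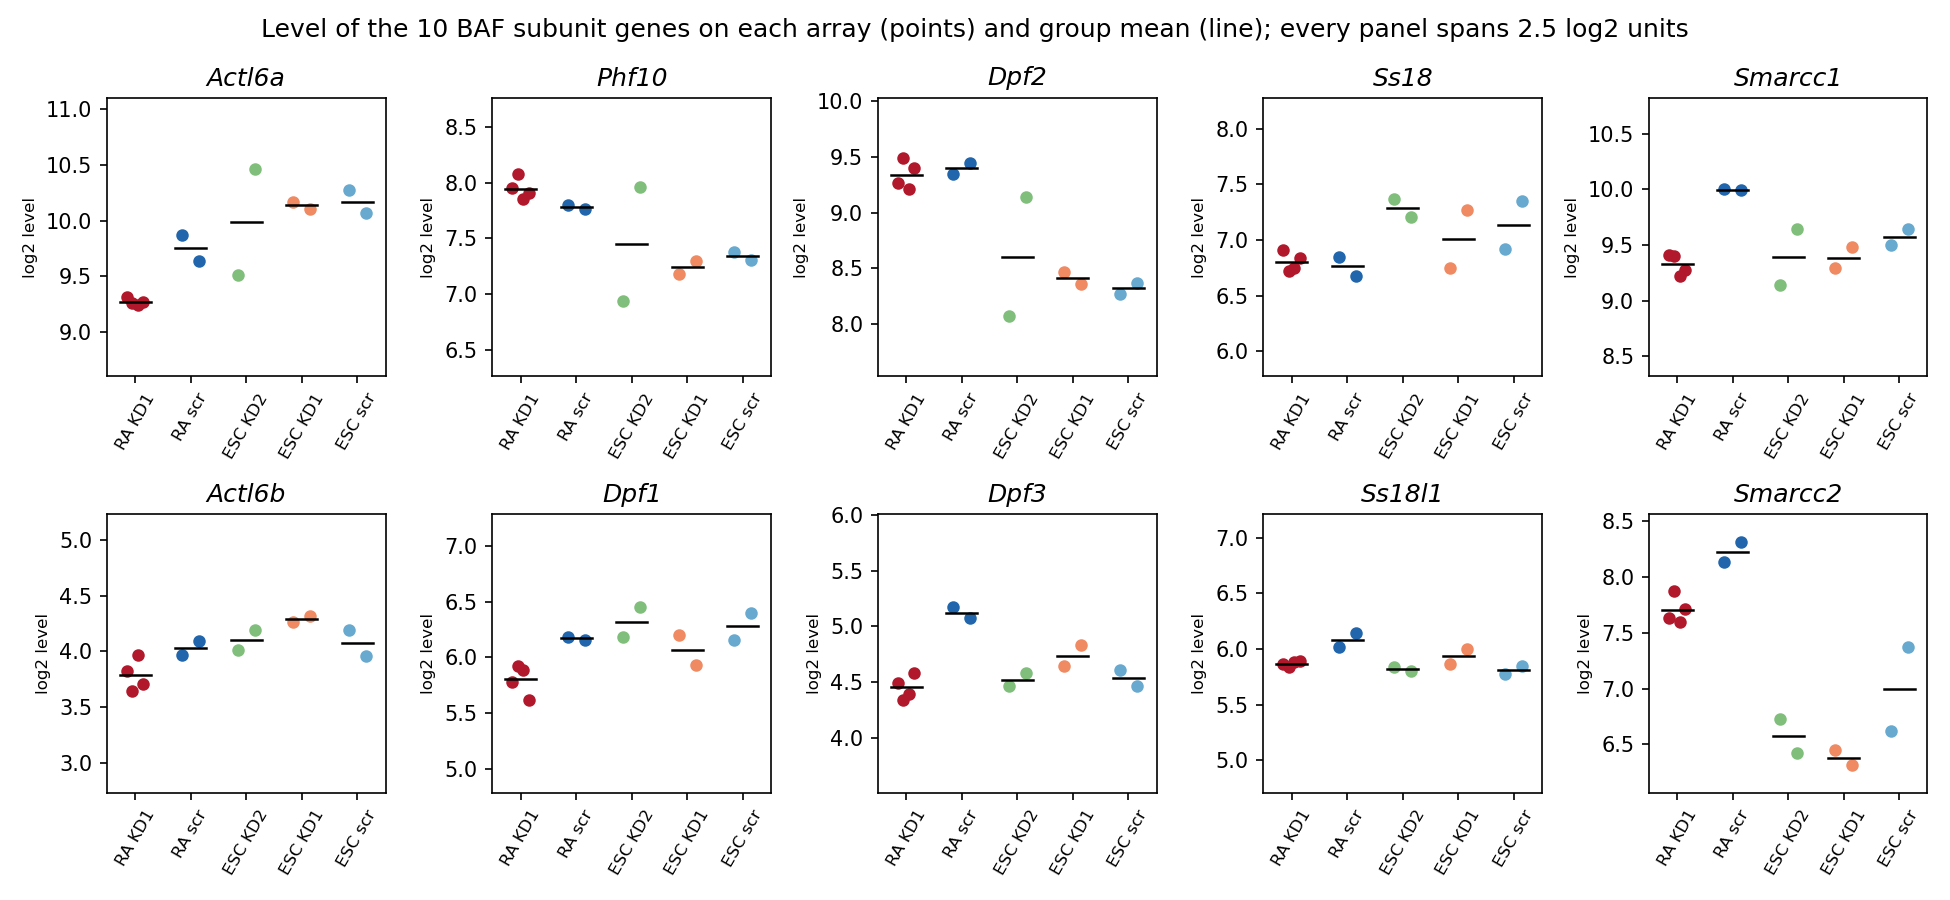
Log2 level (y axis) of each of the 10 genes on each array (points) in the 5 groups (x axis), with the group mean as a line. Every panel spans the same range of log2 units, and levels may be compared between groups within a panel but not between panels. Smarcc2 and Dpf2 were high on all RA arrays, with 1 ESC KD2 array near them for Dpf2, and Dpf3 was high in RA scrambled.

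Counted by arrays alone, 6 of the 9 tested members were higher on every RA scrambled array than on every ESC scrambled array and 2 were lower on every array, beside 43.5% and 33.6% of all tested genes. In KD1 cells 3 were higher and 3 lower without overlap, beside 40.9% and 33.2%. Between RA KD1 and RA scrambled, Phf10 alone was higher on every RA KD1 array, beside 26.5% of tested genes. In the same comparison 6 members, Actl6a, Dpf1, Dpf3, Ss18l1, Smarcc1 and Smarcc2, were lower on every RA KD1 array, beside 27.5% of tested genes.

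The actin-like subunits are taken first. Actl6a (probe set 10491385), the form used by ESCs and progenitors, measured 9.31, 9.26, 9.24 and 9.27 in RA KD1 and 9.87 and 9.64 in RA scrambled. It measured 9.51 and 10.46 in ESC KD2, 10.17 and 10.10 in ESC KD1, and 10.27 and 10.07 in ESC scrambled. The 4 RA KD1 arrays lay below every other array, both RA scrambled arrays lay below the ESC KD1 and ESC scrambled arrays, and the ESC KD2 arrays lay apart from each other. In RA KD1 against ESC KD1, Actl6a fell by 0.87 ± 0.21 (SE, limma adjusted p 0.00497), a level 0.547 times that of ESC KD1. In RA scrambled against ESC scrambled the change was −0.42 ± 0.24 (adjusted p 0.205, limma, and 0.0126 without the KD2 arrays). RA KD1 against RA scrambled gave −0.49 ± 0.21 (adjusted p 0.13, limma, and 0.00383 without the KD2 arrays). The change with retinoic acid differed between the lines by −0.45 ± 0.32, which did not pass (adjusted p 0.494, limma, and 0.0724 without the KD2 arrays).

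Actl6b (probe set 10526614), the neuronal form, measured 3.82, 3.64, 3.97 and 3.71 in RA KD1 and 3.97 and 4.09 in RA scrambled. In undifferentiated cells it measured 4.01 and 4.19 in ESC KD2, 4.26 and 4.32 in ESC KD1, and 4.19 and 3.96 in ESC scrambled. It lay below the dim limit, which was percentile 40 of the named genes on each array or 4.46 to 4.63, on all 12 arrays, and it was left out of the tests. The ESC KD1 arrays were the highest of the 12, and the lowest levels were on RA KD1 arrays. With no limit on dim genes the fit gave −0.51 ± 0.12 in RA KD1 against ESC KD1 (limma adjusted p 0.00836), a difference between levels that were all dim, and −0.04 ± 0.14 in RA scrambled against ESC scrambled (adjusted p 0.896).

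Of the PHD-finger subunits of the progenitor side, Dpf2 rose with retinoic acid in both lines. Phf10 passed in KD1 cells only, and its change did not differ between the lines past the threshold. Dpf2 (probe set 10465263), which is found in many cell types, measured 9.27, 9.49, 9.21 and 9.40 in RA KD1 and 9.35 and 9.45 in RA scrambled. Its undifferentiated levels were 8.07 and 9.14 in ESC KD2, 8.47 and 8.36 in ESC KD1, and 8.27 and 8.37 in ESC scrambled. Every RA array lay above every undifferentiated array, and ESC KD2 replicate 2 lay nearest to them. Dpf2 rose by 1.08 ± 0.27 in RA scrambled against ESC scrambled, 2.11-fold (limma adjusted p 0.00749), and by 0.93 ± 0.23 in RA KD1 against ESC KD1, 1.9-fold (adjusted p 0.00566). Without RA scrambled replicate 2 the control value was 1.03 (adjusted p 0.0521, limma), and without ESC KD1 replicate 2 the KD1 value was 0.87 (adjusted p 0.0549). RA KD1 and RA scrambled overlapped, with a difference of −0.06 ± 0.23 (limma adjusted p 0.903), which was 0.01 when each array was centred on its median.

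Phf10 (probe set 10448004), a subunit of the PBAF form of the complex, measured 7.95, 8.08, 7.85 and 7.91 in RA KD1 and 7.80 and 7.76 in RA scrambled. In undifferentiated cells it measured 6.94 and 7.96 in ESC KD2, 7.18 and 7.30 in ESC KD1, and 7.38 and 7.31 in ESC scrambled. The RA arrays were above the ESC KD1 and ESC scrambled arrays, while ESC KD2 replicate 2 was among the RA arrays. Phf10 rose by 0.71 ± 0.22 in RA KD1 against ESC KD1 (limma adjusted p 0.019). This call did not hold without ESC KD1 replicate 1 (0.65, limma adjusted p 0.118) or replicate 2 (0.77, adjusted p 0.0733), nor with only RA KD1 replicates 1 and 2 (adjusted p 0.0549) or 3 and 4 (adjusted p 0.102). In RA scrambled against ESC scrambled the change was 0.43 ± 0.26 (adjusted p 0.211, limma, and 0.00839 without the KD2 arrays). The responses of Phf10 differed between the lines by 0.28 ± 0.34, which did not pass (limma adjusted p 0.726). RA KD1 minus RA scrambled was 0.17 ± 0.22 (limma adjusted p 0.67).

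Dpf3 was the member whose response to retinoic acid passed the test of a difference between the lines, in the fit to all arrays. Dpf3 (probe set 10401359), a neuronal PHD-finger subunit that is also known from heart and skeletal muscle, measured 4.49, 4.34, 4.39 and 4.58 in RA KD1 and 5.17 and 5.07 in RA scrambled. It measured 4.46 and 4.58 in ESC KD2, 4.64 and 4.83 in ESC KD1, and 4.61 and 4.46 in ESC scrambled. Both RA scrambled arrays lay above all other arrays, and the 4 RA KD1 arrays lay below both ESC KD1 arrays. These are dim levels: Dpf3 was above the dim limit on 7 of 12 arrays, which were both RA scrambled, both ESC KD1 and 1 of each other group. It passed the limit on the ESC KD1 arrays as well as on the RA scrambled arrays in which it was high.

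Dpf3 rose by 0.58 ± 0.15 in RA scrambled against ESC scrambled, 1.5-fold (limma adjusted p 0.0102), and the change was −0.28 ± 0.13 in RA KD1 against ESC KD1 (adjusted p 0.0942, and 0.0406 without the KD2 arrays). It fell by 0.67 ± 0.13 in RA KD1 against RA scrambled, to 0.629 times the level (limma adjusted p 0.00342). The difference between the 2 responses was −0.87 ± 0.20 (limma adjusted p 0.0229), beside 3.61% of tested genes called lower and 7.88% called in either direction, and Dpf3 was the 1 member of 9 that passed. The call held in 14 of 24 alternatives and was lost without either RA scrambled array, either ESC KD1 array, ESC scrambled replicate 2 or RA KD1 replicate 3, among others, with adjusted p up to 0.114 (limma). The increase in control cells did not pass without ESC scrambled replicate 2 (limma adjusted p 0.0738) or without RA scrambled replicate 1 (adjusted p 0.0673). Heart and muscle genes (14 measured) averaged 4.87 to 5.0 in RA KD1 and 5.16 to 5.20 in RA scrambled, against 4.68 to 4.83 in ESC KD2, 4.55 to 4.74 in ESC KD1 and 4.60 to 4.63 in ESC scrambled. Of these 14, 9 were bright enough to test. In RA KD1 against RA scrambled 1 of the 9 rose and 2 fell, beside 11.2% and 11.5% of all tested genes. Like the heart and muscle list, the neural progenitor and feeder lists were highest in RA scrambled. The part of these lists in the Dpf3 result was not tested.

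Dpf1 (probe set 10551741), the other neuronal PHD-finger subunit, measured 5.78, 5.92, 5.89 and 5.62 in RA KD1 and 6.18 and 6.16 in RA scrambled. It measured 6.18 and 6.45 in ESC KD2, 6.20 and 5.93 in ESC KD1, and 6.16 and 6.40 in ESC scrambled. The RA KD1 arrays were the lowest of all arrays, with ESC KD1 replicate 2 next to them, and the RA scrambled arrays overlapped the ESC scrambled arrays. None of its changes passed the test: −0.12 ± 0.17 in RA scrambled against ESC scrambled (limma adjusted p 0.642), −0.26 ± 0.15 in RA KD1 against ESC KD1 (adjusted p 0.168), and −0.36 ± 0.15 in RA KD1 against RA scrambled (adjusted p 0.114, and 0.0418 without the KD2 arrays).

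**Figure D3:**
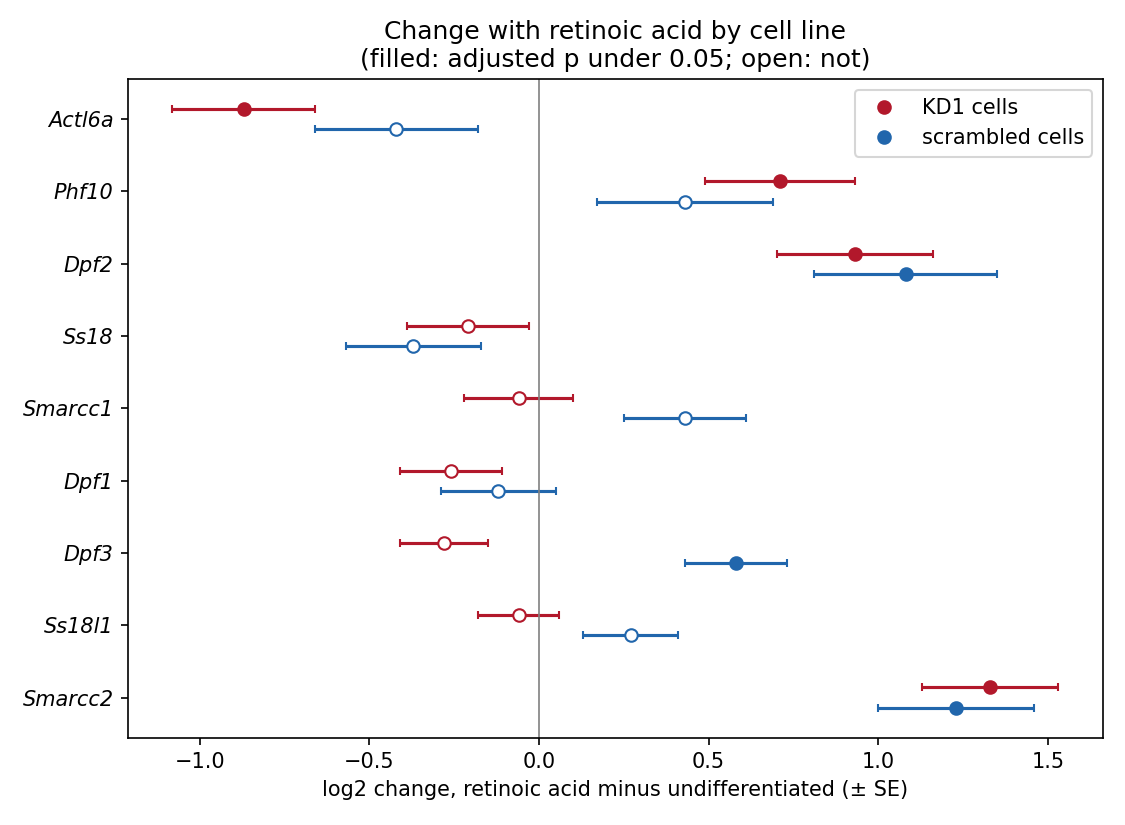
Log2 change with retinoic acid (x axis, estimate ± SE from limma) for the 9 tested genes (y axis) in KD1 cells (RA KD1 minus ESC KD1) and scrambled cells (RA scrambled minus ESC scrambled), with filled points past an adjusted p of 0.05. Smarcc2 and Dpf2 rose in both lines, Dpf3 lay at 0.58 in scrambled cells and −0.28 in KD1 cells, and Actl6a lay below 0 in both.

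Ss18 and Ss18l1 showed no change that passed the test. Ss18 (probe set 10457598), the subunit replaced in neurons, measured 6.91, 6.72, 6.75 and 6.84 in RA KD1, 6.85 and 6.68 in RA scrambled, 7.37 and 7.21 in ESC KD2, 6.75 and 7.27 in ESC KD1, and 6.92 and 7.35 in ESC scrambled. The RA scrambled arrays were below the ESC scrambled arrays, and RA KD1 overlapped both RA scrambled and ESC KD1. Its changes were −0.37 ± 0.20 in RA scrambled against ESC scrambled (limma adjusted p 0.171), −0.21 ± 0.18 in RA KD1 against ESC KD1 (adjusted p 0.352) and 0.04 ± 0.18 in RA KD1 against RA scrambled (adjusted p 0.912). Ss18l1 (probe set 10479311), the calcium-responsive neuronal subunit, measured 5.87, 5.84, 5.88 and 5.89 in RA KD1 and 6.02 and 6.14 in RA scrambled. In undifferentiated cells it measured 5.84 and 5.80 in ESC KD2, 5.87 and 6.0 in ESC KD1, and 5.78 and 5.85 in ESC scrambled. The RA scrambled arrays were the highest of the 12. The change was 0.27 ± 0.14 in RA scrambled against ESC scrambled (limma adjusted p 0.149), −0.06 ± 0.12 in RA KD1 against ESC KD1 (adjusted p 0.7) and −0.21 ± 0.12 in RA KD1 against RA scrambled (adjusted p 0.254).

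Among the scaffold subunits, Smarcc2 had the largest increase of the 9 tested members in both lines. Smarcc2 (probe set 10367349), the scaffold gained on differentiation, measured 7.63, 7.88, 7.60 and 7.71 in RA KD1 and 8.14 and 8.32 in RA scrambled. It measured 6.73 and 6.42 in ESC KD2, 6.45 and 6.31 in ESC KD1, and 6.62 and 7.37 in ESC scrambled. All RA arrays lay above all undifferentiated arrays, RA scrambled lay above RA KD1, and the ESC scrambled arrays lay apart from each other. Smarcc2 rose by 1.33 ± 0.20 in RA KD1 against ESC KD1, 2.51-fold (limma adjusted p 0.000169), and by 1.23 ± 0.23 in RA scrambled against ESC scrambled, 2.35-fold (adjusted p 0.00123). Leaving out 1 array at a time moved the control value between 0.86 and 1.60. The responses differed by 0.10 ± 0.30 (limma adjusted p 0.913). RA KD1 minus RA scrambled was −0.52 ± 0.20 (limma adjusted p 0.0805, and 0.0404 without the KD2 arrays), and ESC KD1 minus ESC scrambled was −0.62 ± 0.23 (adjusted p 0.241). With 1 array left out, the ESC KD1 value lay between −0.99 and −0.25, and it passed without ESC scrambled replicate 1 (−0.99, limma adjusted p 0.0426).

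Smarcc1 (probe set 10589466), the scaffold typical of ESCs, measured 9.41, 9.40, 9.22 and 9.28 in RA KD1 and 10.0 and 9.99 in RA scrambled. It measured 9.14 and 9.64 in ESC KD2, 9.29 and 9.48 in ESC KD1, and 9.50 and 9.64 in ESC scrambled. The RA scrambled arrays were the highest of all, and RA KD1 lay within the range of the undifferentiated arrays. Smarcc1 fell by 0.67 ± 0.16 in RA KD1 against RA scrambled, to 0.63 times the level (limma adjusted p 0.00877). That call did not hold without RA scrambled replicate 1 (limma adjusted p 0.0739) or without replicate 2 (adjusted p 0.0677). Nor did it hold with RA KD1 replicates 1 and 2 only (−0.59, limma adjusted p 0.0806), and it passed in 21 of 25 alternatives. In RA scrambled against ESC scrambled the change was 0.43 ± 0.18 (limma adjusted p 0.0784, and 0.011 without the KD2 arrays). In RA KD1 against ESC KD1 it was −0.06 ± 0.16 (limma adjusted p 0.766). The difference between the responses was −0.49 ± 0.24 (limma adjusted p 0.276, and 0.0563 without the KD2 arrays). Extraembryonic endoderm genes were higher, and neural progenitor and feeder genes lower, in the same RA KD1 arrays, with the ranges given above, and their part was not tested.

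In undifferentiated cells none of the 9 tested members passed in the fit to all arrays. In ESC KD1 against ESC scrambled, where 2.32% of tested genes were called, 1 member had an unadjusted p under 0.05, beside 12.8% of tested genes, and this was Smarcc2. In ESC KD2 against ESC scrambled, where 10.0% were called, and in ESC KD2 against ESC KD1, where 2.7% were called, 0 members had an unadjusted p under 0.05 (limma), beside 24.1% and 16.4% of tested genes. The KD2 arrays lay farthest apart for Actl6a, Phf10 and Dpf2, and less far apart for Smarcc1 (9.14 and 9.64). Fitted with ESC KD2 replicate 2 as the lone KD2 array, Dpf2 was 0.82 above ESC scrambled (limma adjusted p 0.00265) and Phf10 was 0.62 above it (adjusted p 0.00707). With replicate 1 alone, the change was −0.66 for Actl6a (limma adjusted p 0.00731) and −0.41 for Phf10 (adjusted p 0.0498). A lone array is assumed in these fits to vary like the other groups. With both KD2 arrays the values were −0.19 ± 0.24 for Actl6a, 0.11 ± 0.26 for Phf10 and 0.28 ± 0.27 for Dpf2.

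Other subunits of the complexes were read as a list. Of 21 tested genes of BAF, PBAF and ncBAF subunits outside the 10 members, 10 rose and 1 fell in RA scrambled against ESC scrambled, beside 22.4% and 16.7% of all tested genes, with a median of 0.44, against 0.06 for all tested genes. Of the same 21 genes, 10 rose and 4 fell in RA KD1 against ESC KD1, beside 29.4% and 21.4% of all tested genes, with a median of 0.48, again against 0.06. Smarca2, the BRM ATPase, measured 7.96, 8.01, 7.88 and 8.17 in RA KD1 and 5.83 and 6.31 in RA scrambled, against 4.23 and 3.86 in ESC KD1 and 4.44 and 4.07 in ESC scrambled. It rose in both lines, by 3.97 ± 0.19 in KD1 cells (limma adjusted p 6.56e-08) and by 1.82 ± 0.22 in control cells (adjusted p 6.82e-05), and the responses differed by 2.15 ± 0.29 (adjusted p 0.000982). Smarce1 (BAF57), a core subunit, rose by 1.56 ± 0.26 in control cells (limma adjusted p 0.000705) and by 1.06 ± 0.23 in KD1 cells (adjusted p 0.00231). Smarcd3 (BAF60c), a paralog of the knockdown target, rose by 1.55 ± 0.36 in KD1 cells (limma adjusted p 0.00369) and by 1.45 ± 0.42 in control cells (adjusted p 0.0161).

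After retinoic acid 6 of the 21 fell and 1 rose in RA KD1 against RA scrambled, beside 11.5% and 11.2% of all tested genes, with a median of −0.19, against −0.02 for all tested genes. Smarcd1 itself fell by 2.26 ± 0.28 (limma adjusted p 0.000152). Bcl11a, a transcription factor and BAF subunit of the nervous and blood systems, measured 4.67, 4.7, 5.06 and 4.92 in RA KD1 and 6.95 and 7.24 in RA scrambled, against 5.02 and 4.91 in ESC KD1 and 5.38 and 5.86 in ESC scrambled. It fell by 2.26 ± 0.17 in RA KD1 against RA scrambled (limma adjusted p 3.76e-06), and its response differed by −1.61 ± 0.26 (adjusted p 0.00356). Bcl7a, an accessory subunit, fell by 1.26 ± 0.14 (limma adjusted p 6.98e-05), and Smarca2 was the gene that rose, by 1.94 ± 0.19 (adjusted p 2.51e-05).

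**Figure D4:**
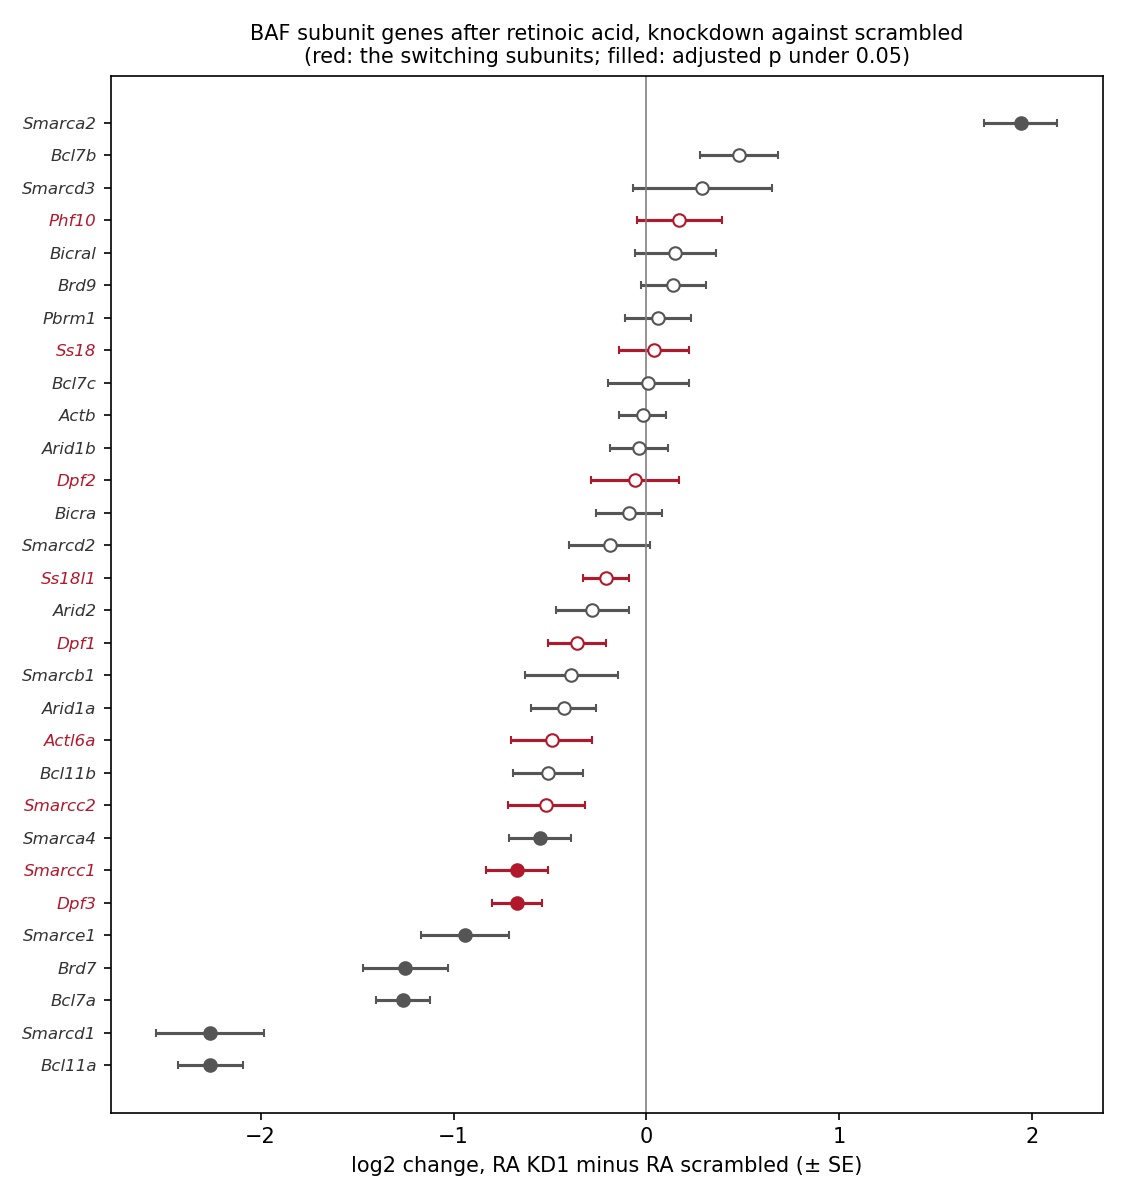
Log2 change between RA KD1 and RA scrambled (x axis, estimate ± SE from limma) for the 9 tested switching subunits (red) and 21 other subunits (grey), ordered by the change, with filled points past an adjusted p of 0.05. Dpf3 and Smarcc1 at −0.67 were the switching subunits past the threshold, and Bcl11a and Smarcd1 at −2.26 and Smarca2 at 1.94 lay farthest from 0.

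The REST and microRNA circuit that precedes the exchange in neurons was read through 16 measured genes, 12 of them tested. In RA scrambled against ESC scrambled 5 rose and 2 fell, beside 22.4% and 16.7% of all tested genes, with a median of 0.61, against 0.06 for all tested genes. The counts were 6 up and 3 down in RA KD1 against ESC KD1, beside 29.4% and 21.4%, with a median of 0.54, against 0.06. After retinoic acid 0 rose and 3 fell in RA KD1 against RA scrambled, beside 11.2% and 11.5%, with a median of −0.16, against −0.02. Rest itself, the repressor of neuronal genes, measured 8.48, 8.62, 8.32 and 8.31 in RA KD1 and 8.52 and 8.64 in RA scrambled, against 9.04 and 9.29 in ESC KD1 and 9.19 and 9.20 in ESC scrambled. All RA arrays were below these ESC arrays. Rest fell by 0.74 ± 0.22 in RA KD1 against ESC KD1 (limma adjusted p 0.0155), and the change in control cells was −0.61 ± 0.25 (adjusted p 0.0762). Rcor1 (CoREST), a partner of REST, rose by 1.56 ± 0.14 in RA KD1 against ESC KD1 (limma adjusted p 4.19e-06) and by 1.39 ± 0.16 in RA scrambled against ESC scrambled (adjusted p 5.3e-05). Ctdspl, a small phosphatase that works with REST, rose by 1.73 ± 0.25 in KD1 cells (limma adjusted p 0.000145) and by 1.05 ± 0.29 in control cells (adjusted p 0.0132). The related phosphatase Ctdsp1 rose by 1.40 ± 0.14 in KD1 cells (limma adjusted p 1.05e-05) and by 0.97 ± 0.16 in control cells (adjusted p 0.00074). Ctdsp2, of the same family, rose by 1.05 ± 0.19 in KD1 cells (limma adjusted p 0.000605) and by 1.09 ± 0.21 in control cells (adjusted p 0.00195). Hdac2, a histone deacetylase, rose by 0.98 ± 0.28 in control cells (limma adjusted p 0.0172). It was 0.55 ± 0.24 higher in KD1 cells without passing (limma adjusted p 0.0799), and the difference between the responses did not pass. Hdac2 fell by 1.46 ± 0.24 in RA KD1 against RA scrambled (limma adjusted p 0.0012). Before retinoic acid it measured 8.91 and 8.74 in ESC KD1, against 9.94 and 9.78 in ESC scrambled. That change was −1.04 ± 0.28, which did not pass (limma adjusted p 0.0925). Rcor2, another partner of REST, fell by 2.74 ± 0.19 in RA KD1 against ESC KD1 (limma adjusted p 6.1e-07). It also fell in RA scrambled against ESC scrambled, by 0.75 ± 0.22 (limma adjusted p 0.0169). Its response differed between lines by −1.99 ± 0.29 (limma adjusted p 0.00164).

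Ptbp2, a splicing regulator of the nervous system, fell by 1.31 ± 0.33 in RA KD1 against RA scrambled (limma adjusted p 0.0146). The microRNA genes were too dim to test: the array level of Mir9-1, a source of the mature miR-9* printed above, was 3.26, 2.94, 3.03 and 3.48 in RA KD1 and 3.12 and 3.42 in RA scrambled, against 3.40 and 3.71 in ESC KD1 and 3.26 and 3.01 in ESC scrambled. Mir9-1 overlapped between RA scrambled and ESC scrambled, and probe sets of Mir9-3 and both measured Mir124a genes were also below the limit for testing. These dim gene-level values do not give the levels of the mature microRNAs, so nothing is read from them about a change in miR-9* or miR-124.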

How the data were processed

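Biotin-labelled RNA of each sample was read on 1 Affymetrix mouse gene array. The authors deposited log2 values per probe set, made with RMA per the submitters' processing notes. The version of RMA is not given in the sources used. Array medians ran from 4.73 to 5.09, and no scaling was added. Of 35556 probe sets, 21789 had 1 gene symbol in the platform's gene table, 1621 had several and 12146 were not listed. The probe set with the highest mean stood for each of the 999 genes with several, which gave 19938 genes. Tests were run on the 12988 genes above the dim limit, percentile 40 of an array's named genes, on 2 or more arrays. The 12 arrays were fitted together, with 1 mean per group, in limma 3.58.1 under R 4.3.3 (7 residual degrees of freedom, prior 4.58), and called genes had a two-sided Benjamini-Hochberg adjusted p under 0.05 within each of 7 contrasts. The code of the fit was checked on simulated data with known changes in RA scrambled. The simulated noise was independent and of equal spread on all arrays, so the check does not cover the wider spread of the KD2 arrays. Precision is limited by the number of arrays.

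Members, gene lists and tests were chosen with earlier results of these data known, so counts over them are descriptions. Named genes are the members, Smarcd1, and up to 4 tested genes per list with the largest change past the threshold; Rest and the microRNA genes are named as the heads of their list, and Mir9-1, Dcx, Rbfox3 and Snap25 as dim. Alternatives covered the dim limit, cyclic loess, median centring, array weights, an intensity trend, the arrays in the fit, several probe sets per gene, a stricter threshold, a replicate block and each array left out. Figures were drawn with matplotlib 3.10.9 from tables made in numpy 2.4.6, pandas 2.3.3 and Python 3.11.15.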

Additional observations from a re-analysis of the deposited data

Results flagged for a closer look

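The response of Dpf3 to retinoic acid differed between the lines by −0.87 ± 0.20 on the log2 scale (limma interaction term, adjusted p 0.0229), which is why it is listed here. Over 24 alternatives the difference kept its sign in all 24, ran from −0.96 to −0.75 and passed in 14, with adjusted p from 0.00367 to 0.114 (limma). Dpf3 was above the dim limit on 7 of 12 arrays. The difference between the lines was not tested with the neural progenitor, endoderm or feeder levels in the fit.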

How the results depend on the processing

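Members called in RA scrambled against ESC scrambled (3) numbered 5 with cyclic loess, 6 with array weights, 5 with the compared arrays alone and 6 without the KD2 arrays, and 2 to 6 over single arrays left out. In RA KD1 against ESC KD1 (4) leaving out single arrays gave 2 to 5, with 2 without ESC KD1 replicate 2. In RA KD1 against RA scrambled (2) there was 1 with the dim limit at percentile 60, 1 with a replicate block and 1 with RA KD1 replicates 1 and 2 only, 5 each with array weights, the compared arrays alone or no KD2 arrays, and 1 to 5 over single arrays left out, with 1 without either RA scrambled array. The difference between responses (1) gave 0 with the dim limit at percentile 60. Dpf3 was not tested at that limit, which also lowered the count for RA KD1 against RA scrambled. The difference between responses gave 2 with array weights and 0 with an adjusted p under 0.01 or a replicate block. It also gave 0 with RA KD1 replicates 1 and 2 only or 3 and 4 only. Leaving out single arrays there gave 0 to 1, with 0 without ESC scrambled replicate 2, either ESC KD1 array, either RA scrambled array or RA KD1 replicate 3. In ESC KD1, ESC KD2 and their difference, single arrays left out gave 0 to 1, 0 to 2 and 0 to 2. Leaving out either KD2 array removes that group's spread, while the estimates of comparisons without KD2 stay the same. In the comparisons with KD2 the estimates move as well, as given for Actl6a, Phf10 and Dpf2. The causes of the other moves were not tested.

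Replicate numbers were not used to pair the arrays in the fit reported. In their deviations from group means, 3 of 20 same-numbered pairs correlated above 0.1 (−0.183 to 0.243). In groups of 2 arrays these deviations mirror each other, so the pairs are not independent and pairing is not excluded. With the replicate block Smarcc1 in RA KD1 against ESC KD1 was 0.02, as with RA KD1 replicates 1 and 2 only, against −0.06. Signs also turned, each for a value that missed the threshold in the fit reported, for Smarcd1 in RA scrambled against ESC scrambled (−0.04 with cyclic loess, −0.02 with median centring, −0.04 to 0.17 over single arrays left out) and Dpf2 in RA KD1 against RA scrambled (0.01 with median centring). Among the changes the text gives singly, the ranges over single arrays left out that reached or crossed 0 were −0.24 to 0 for Dpf1 in RA scrambled against ESC scrambled, −0.47 to 0.06 for Ss18, −0.12 to 0.01 for Ss18l1 and −0.16 to 0.03 for Smarcc1 in RA KD1 against ESC KD1, and −0.05 to 0.13 for Ss18 in RA KD1 against RA scrambled. In ESC KD2 against ESC scrambled they were −0.66 to 0.28 for Actl6a, −0.41 to 0.62 for Phf10 and −0.25 to 0.82 for Dpf2. In the difference between responses they were −0.10 to 0.43 for Ss18 and −0.27 to 0.47 for Smarcc2.

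All tested genes called ran from 3332 to 7074 (5079 in the fit reported) in RA scrambled against ESC scrambled, 1526 to 4988 (2942) in RA KD1 against RA scrambled, 26 to 1148 (301) in ESC KD1, 0 to 4463 (1302) in ESC KD2, 0 to 4550 (351) between the KD2 and KD1 lines and 400 to 2548 (1024) for the difference between responses. Between KD2 and KD1, 18.8% of calls were higher, and 30.8% with cyclic loess.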

Other observations

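Genes whose log2 levels followed those of a member most closely over the 12 arrays are given as a description, since the arrays fall into 5 groups. For Smarcc2, the member with the largest increase in RA scrambled against ESC scrambled cells, they were Nexn (Pearson r = 0.98), Sema3c (0.979), Mllt11 (0.976), Pard3 (0.976) and Grip1 (0.971). For Actl6a, the member with the largest decrease there, which did not pass the test, they were Gins1 (0.995), Lyar (0.985), Mcm7 (0.978), Exosc2 (0.977) and Dnph1 (0.97).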
